A study of Homo sapiens with 8 samples.

Results

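STC1 and STC2 are the stanniocalcin genes of the human genome, and their rows were read by symbol from a table of 28859 gene symbols, so that the account concerns 2 genes of 28859. Stanniocalcins are secreted glycoprotein hormones, named after a fish hormone that lowers blood calcium. In mammals they act near the cells that release them, and both proteins inhibit pappalysins such as PAPP-A, the metalloproteases that cleave insulin-like growth factor (IGF) binding proteins and so free IGF. In breast cancer cells STC2 is known as an estrogen-responsive gene, it is a target of the stress factor ATF4, and both genes are known to respond to low oxygen.

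The cells were T47D, an established line of luminal, hormone-receptor-positive breast cancer. They carried a control plasmid (EV in the labels) or a plasmid for HA-tagged GATA3, a transcription factor of luminal breast epithelium, as the wild type or as the truncated variants TR1 or TR2. Each of the 4 groups had 2 RNA-seq libraries, written EV-1 and EV-2 for the control, wt-1 and wt-2 for wild type, and likewise for TR1 and TR2. The labels do not state the promoter of the plasmids, whether the cells were clones or pools, or whether replicates were separate cultures, so the spread between replicates may be technical. All groups also hold the endogenous GATA3 of T47D cells, and the counts do not separate plasmid from endogenous transcripts.

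STC2 lies on the minus strand of chromosome 5. The 250 bases before the RefSeq start of STC2, at 173328414, were searched on both strands for GATA-factor words (AGATAA or AGATAG, and TGATAA or TGATAG), for the hypoxia response core (ACGTG or GCGTG) and for the ATF4-type composite word TGATGNAA. The hypoxia core was found 3 times, and the stretch that holds all of its matches is shown because STC2 is a known hypoxia-responsive gene:
STC2, chr5:173328626-173328655, minus strand: catacaCACGCACGCaaacGCGTGgccgcc
Capitals mark the matches, at 235, 231 and 222 bases before the start; the first and second are on the reverse strand and overlap by a base. This 30-base stretch runs from 241 to 212 bases before the RefSeq start, in a GENCODE first exon that begins further upstream (173328043 to 173329503). The hypoxia core is common, being present in 43.2% of 35116 RefSeq promoters (GRCh38.p14) over the same window. The GATA words occur in 22.3% of those promoters and the ATF4-type word in 3.14%, and neither set of letters was found in this window of STC2.

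The pair was chosen with its levels in these 8 libraries already known. Its levels and its differences between groups are therefore given as a description with no test, and only other genes were tested. Levels are normalized counts: reads per gene divided by a factor for each library. STC1 and STC2 both passed the filter on low values that left 14881 genes (2 or more libraries at a normalized count of 10 or higher), STC1 through its TR1 libraries alone.

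Reads on genes numbered 13292861 to 19572394 a library, and mitochondrial transcripts took between 7.11% and 8.50% of the normalized counts. Over 10424 genes with a mean normalized count of at least 100, replicates differed on the log2 scale with an SD of 0.383 for TR1, 0.169 for the control, 0.133 for TR2 and 0.119 for wild type, so the TR1 libraries stood further apart than the others. The keratin genes KRT8 and KRT18, the epithelial cadherin gene CDH1 and the receptor gene ESR1, which define luminal breast cells, were counted at over 1000 reads in every library. The summed level of 9 luminal markers was 142724 to 147886 in the control, 144879 to 146636 with wild type, 172299 to 175833 with TR1 and 152500 to 157208 with TR2. The markers did not move together. From control to TR1, mean KRT8 went from 51589 to 66348 and KRT19 from 28926 to 37894. FOXA1 went from 8291 to 6807 and GATA3 from 13201 to 9072, while CDH1 was at 8135 and 8176. KRT18, EPCAM, ESR1 and PGR had higher means with TR1, and the PGR libraries of TR1 lay far apart (7826 and 18201).

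STC1 (ENSG00000159167) lies on the minus strand of chromosome 8 from 23841915 to 23854807, and STC2 (ENSG00000113739) on the minus strand of chromosome 5 from 173314713 to 173329503, both in GRCh38 by GENCODE 29. The exons of STC1 cover 4149 bases in 5 blocks, and those of STC2 cover 6128 bases in 6 blocks. No other annotated gene overlaps either of them on either strand, so neither count can hold reads of an overlapping annotated gene.

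STC1 was read almost only in the TR1 libraries. Its normalized counts were 0 and 0 in the control libraries, 0 and 1.14 with wild type, 59.1 and 59.4 with TR1, and 0 and 2.78 with TR2. In reads these are 61 and 71 with TR1, 1 in 1 of the wild-type libraries and 3 in 1 of the TR2 libraries. Both TR1 libraries lay far above the other 6, whose values overlapped between the groups.

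The 2 TR1 values of STC1 differed by 0.006 on the log2 scale. Their exact 95% Poisson intervals, which cover counting error only, ran from 45.2 to 76.0 and from 46.4 to 74.9 normalized counts, so values this close are within what counting gives. For a library with 0 reads a floor of 3 reads was set, which is 3.22 and 3.66 normalized counts in the control libraries. The exact 95% upper limits there were higher, at 3.96 and 4.50. The TR1 mean of STC1 was 17.2-fold above the mean of the 3-read floors, a ratio that carries no counting interval. The ratio of TR1 to wild type was 113 with an exact 95% counting interval from 20.02 to 4515, because wild type had 1 read in all. The ratio of TR1 to TR2 was 43.3, with an interval from 14.5 to 213, on 3 TR2 reads. No fold is given among control, wild type and TR2, since all of them lie at or under the floor, and their order is not detectable at this depth.

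In the whole table, 3 genes had 0 reads in both control libraries and at least 50 normalized counts in both TR1 libraries: STC1, the proteoglycan gene DCN and the synaptic gene RIMS2. That limit of 50 lies just below the level of STC1 itself, and genes such as DPYS and COL3A1, at 0 in the control and lower with TR1 than STC1, fall under it. On the log2(normalized count + 1) scale the difference of STC1 between TR1 and TR2, 4.95 ± 0.70 (SE), ranked 1 of 14881 genes. Against the control it was 5.91 ± 0.70 and ranked 6, and against wild type it was 5.36 ± 0.70 and ranked 12. These differences depend on the constant added before the logarithm. The ranks only describe STC1, which was chosen with its levels known and is among the 14881 genes through its TR1 libraries alone.

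STC2 was an abundant transcript in every library, with a graded order of the groups. Its normalized counts were 5041 and 5046 in the control, 5058 and 5100 with wild type, 7587 and 7189 with TR1, and 5956 and 6093 with TR2. The TR1 libraries were the highest, the TR2 libraries lay between, and the control and wild-type libraries were the lowest and close together. The groups did not overlap in this order. TR1 above TR2, with both above control and wild type, was met by 4.19% of all genes tested. Limma, which is another measure, called 10.6% of them between TR1 and the control and 0.921% between TR2 and the control. From these shares nothing is read for a pair chosen on these values.

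**Figure D1:**
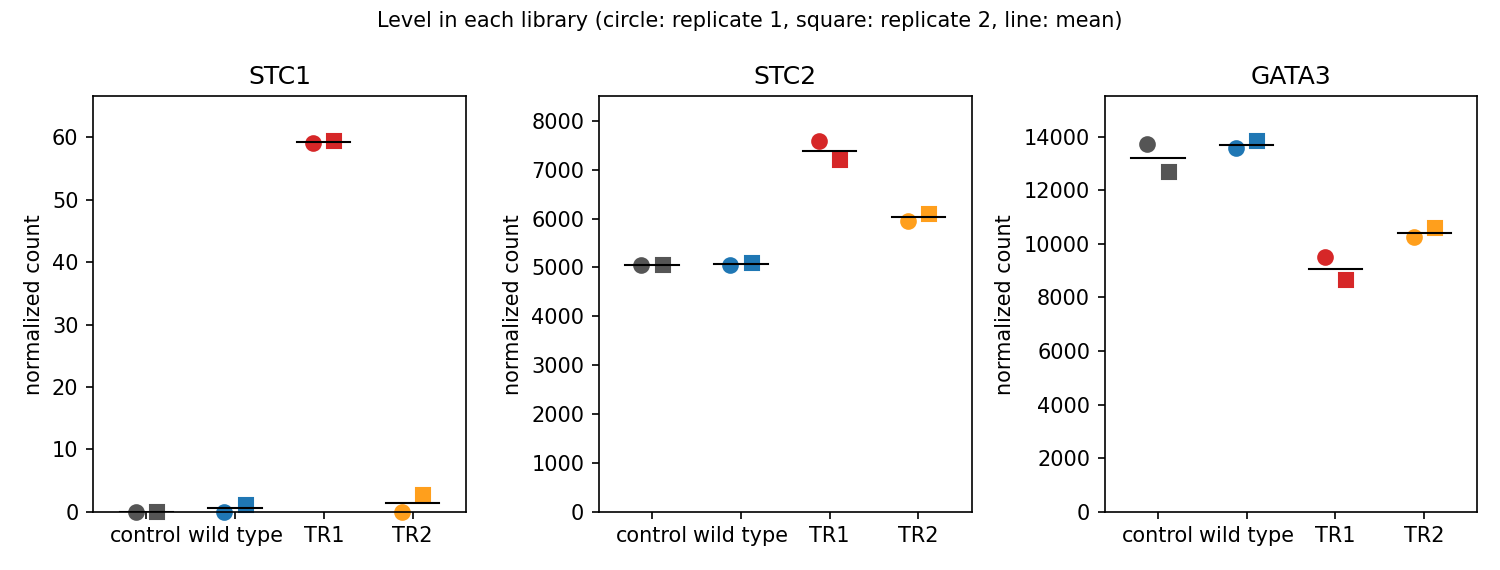
Normalized counts (vertical axes, starting at 0) of STC1, STC2 and GATA3 in the 8 libraries by group; circles are replicate 1, squares replicate 2 and lines the mean of 2. STC1 sits at 59.1 and 59.4 with TR1 and at 2.78 or less elsewhere, STC2 is highest with TR1 (7587 and 7189), and GATA3 is lowest with TR1 (9506 and 8638).

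The mean of STC2 was 7388 ± 281 (SD, n = 2) with TR1 and 5044 ± 4.03 in the control, 46.5% higher, a log2 difference of 0.55 ± 0.05 (SE). Pairing any TR1 library with any control library gave ratios between 1.42 and 1.51. With TR2 the mean was 6025 ± 96.6, 19.5% above the control (0.26 ± 0.05), with ratios between 1.18 and 1.21. STC2 was thus higher with each truncated variant by more than the spread between replicates.

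With wild-type GATA3, STC2 stood at 5079 ± 29.9, 0.706% above the control. That log2 difference was 0.01, with a standard error of 0.05 from the spread of all 4 groups. The wild-type and control libraries did not overlap, and their replicates differed by 0.012 and 0.002. The share of all genes without overlap between these groups is not given here, so nothing is read from it. After each library was centred on its median gene the log2 difference was -0.06, so even its sign depends on the scaling. Against wild type, STC2 was 45.5% higher with TR1 (0.54 ± 0.05) and 18.6% higher with TR2 (0.25 ± 0.05). Between the truncated variants it was 22.6% higher with TR1 (0.29 ± 0.05), the ratios of single libraries lying between 1.18 and 1.27.

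Replicates of STC2 lay close. Their log2 difference was 0.002 in the control, 0.012 with wild type, 0.078 with TR1 and 0.033 with TR2. Of the 3697 genes tested with a mean normalized count of at least 1000, 104 (2.81%) had a larger log2 difference between TR1 and the control than STC2. The order with both TR1 libraries above both TR2 libraries, and these above all control and wild-type libraries, was met by 623 of 14881 genes tested (4.19%), STC2 among them.

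**Figure D2:**
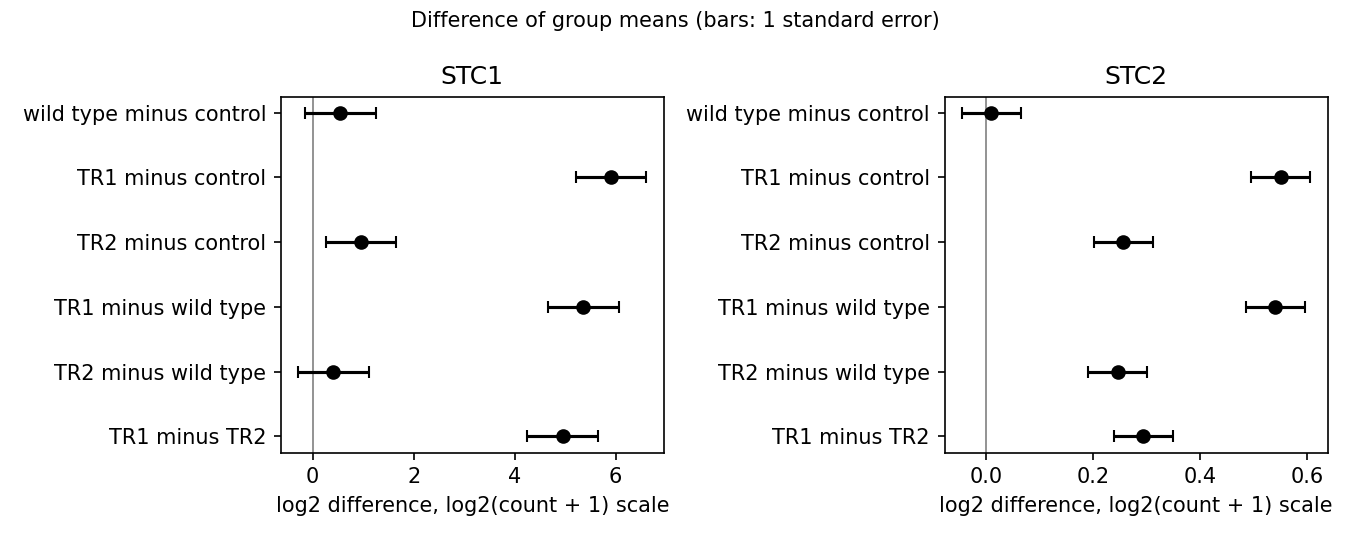
Difference of group means of STC1 and STC2 on the log2(normalized count + 1) scale (horizontal axes, which differ in range) for the 6 pairs of groups; bars are 1 standard error of a fit to all 8 libraries. STC1 lies between 4.95 and 5.91 where TR1 is compared with another group, and STC2 lies at 0.55 for TR1 and 0.26 for TR2 against the control.

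The genes differ widely in level. Per kilobase of exon, STC2 stood between 823 and 832 normalized counts where GATA3 was not truncated. Its TR1 libraries had 1238 and 1173, and its TR2 libraries 972 and 994. Among 15398 protein-coding genes with a gene model it ranked between 503 and 853 from the top over the 8 libraries. STC1 reached 14.3 normalized counts per kilobase in each TR1 library, above 35.0% and 33.7% of those genes. With TR1, where STC1 was highest, STC2 was still 84.4-fold higher per kilobase.

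GATA3 was read in every group as the gene the plasmids encode. It stood at 13726 and 12676 normalized counts in the control, 13555 and 13833 with wild type, 9506 and 8638 with TR1, and 10235 and 10588 with TR2. The groups with the lower GATA3 counts were those with the higher STC2 counts. The wild-type and control libraries overlapped in GATA3, and GATA3 was lower with TR1 than in the control (-0.54 ± 0.07, adjusted p = 0.00149).

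The libraries were also read for markers of other cell types of breast tissue. Of 8 fibroblast markers 7 were in the table, and their summed level was 396 to 398 normalized counts in the control, 411 to 447 with wild type, 327 to 357 with TR1 and 272 to 296 with TR2. COL1A2, a defining collagen gene of fibroblasts, had 0 reads in all 8 libraries. DCN had 66 and 70 reads and LUM 8 and 33 with TR1, against 0 in the control, and COL3A1 had 21 and 22 against 0. With TR2, LUM had 0 reads, DCN 3 and 2, and COL3A1 4 and 4. COL1A1, which made up most of the fibroblast sum, averaged 378 in the control, 408 with wild type, 220 with TR1 and 267 with TR2. Of 6 endothelial markers 4 were in the table, with sums of 1.22 to 4.30 in the control and 5.86 to 10.7 with TR1. The sums were 1.14 to 1.93 with wild type and 1.80 to 8.35 with TR2. KDR had 0 and 0 reads in the control, 1 and 0 with wild type, 8 and 6 with TR1, and 2 and 7 with TR2. CDH5, the endothelial cadherin gene, and CLDN5 had at most 1 read in any library, and VWF at most 3.

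Of the 7 leukocyte markers 5 were in the table, and their summed level did not exceed 4.85 in any library. Basal and myoepithelial markers summed to 998 to 1071 in the control, 892 to 979 with wild type, 3075 to 3419 with TR1 and 1031 to 1115 with TR2. Nearly all of that sum was the smooth muscle actin gene ACTA2, with 3447 and 3587 reads with TR1, while no library had more than 3 reads of the basal keratins KRT5, KRT14 or KRT17. MYH11 and OXTR, other genes of that list, averaged 5.59 and 8.92 in the control and 1.74 and 5.29 with TR1. The remaining gene, TP63, averaged 42.9 in the control, 57.7 with wild type, 66.3 with TR1 and 63.1 with TR2. ACTA2 with TR2 (1042 and 955) overlapped the control (1008 and 943). The part of these marker levels in those of the stanniocalcins was not tested. In bulk RNA, fewer cells of a kind and less RNA per cell cannot be told apart.

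Genes with the profile most like each stanniocalcin were ranked by Pearson's r over the 8 libraries, among 1026 genes whose group means span at least 1 log2 unit. The 6 highest for STC1 were IP6K3 (r = 0.973), DPYSL3 (0.969), TRIM29 (0.965), EFEMP2 (0.963), DPYS (0.963) and SEMA3A (0.963). DPYS, the dihydropyrimidinase gene, had 25.2 and 29.3 normalized counts with TR1 and 0 in the other 6 libraries. TRIM29, a gene of stratified and basal epithelium, was at 763 and 701 with TR1 and between 239 and 320 elsewhere. IP6K3, an inositol phosphate kinase gene, was at 26.2 and 24.3 with TR1 and at 5.57 or less elsewhere. In all 6, both TR1 libraries lay above every other library, which follows from picking them by likeness to STC1 and is no separate result.

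For STC2 the highest reported here were COL3A1 (r = 0.996), DEGS1 (0.993), SH3KBP1 (0.993), DYRK3 (0.989) and PRKCD (0.988). DEGS1, which encodes a ceramide-forming desaturase, was at 914 and 945 in the control, 882 and 875 with wild type, 2150 and 2009 with TR1, and 1404 and 1424 with TR2. PRKCD, a protein kinase C gene, averaged 939 in the control and 906 with wild type, against 1895 with TR1 and 1398 with TR2. In these 5 genes, both TR2 libraries lay below both TR1 libraries and above all control and wild-type libraries. STC2 has that order itself, so it follows from picking the genes by likeness to STC2 and is no separate result. The r of STC1 with STC2 was 0.916, a description of a pair chosen with its levels known. The median r over the 1026 genes was 0.477 for likeness to STC1 and 0.562 for likeness to STC2. It is no yardstick for the pair, since the group means of STC2 span less than 1 log2 unit. These correlations describe 8 libraries in 4 groups, and all genes share the same libraries and scaling.

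**Figure D3:**
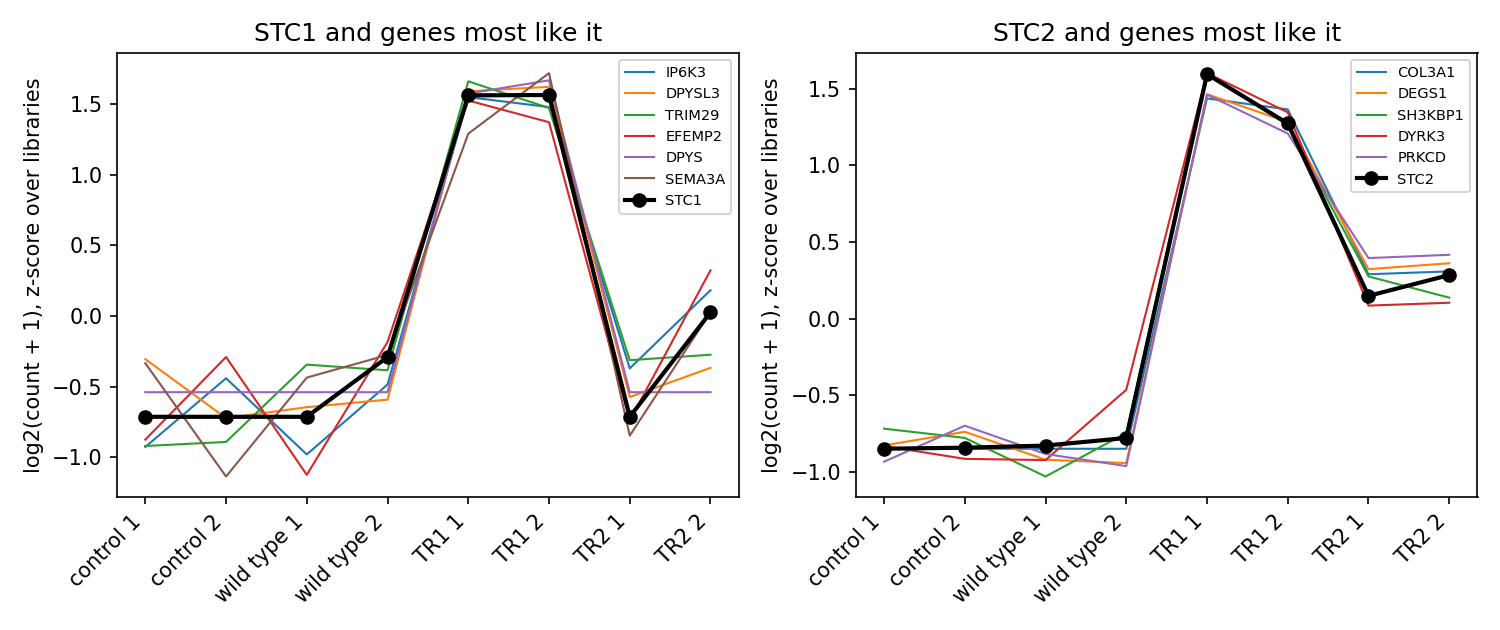
Log2(normalized count + 1) of STC1 (left) and STC2 (right), in black, with 6 genes (STC1) and 5 genes (STC2) of high Pearson's r to each, as z-scores over the 8 libraries (vertical axes); library names give group and replicate. The STC1 set is high in the TR1 libraries only, and the STC2 set also shows a level in TR2 between TR1 and the others.

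Genes around the stanniocalcins were read from lists chosen for their known links, and were tested with limma over all 14881 genes with Benjamini-Hochberg adjustment and a threshold of 0.05. Against the control, limma called 1.69% of genes with wild type (102 or 0.685% higher, 149 or 1.0% lower), 10.6% with TR1 (731 or 4.91% higher, 847 or 5.69% lower) and 0.921% with TR2 (78 or 0.524% higher, 59 or 0.396% lower, and 111 and 142 genes after median centring). All of these comparisons share the control libraries. The totals of 251, 1578 and 137 genes became 64, 604 and 31 without EV-1, 73, 630 and 36 without EV-2, and 49, 953 and 72 without wt-1. They became 49, 949 and 69 without wt-2, 1758, 5170 and 2736 without TR1-1, 1758, 1681 and 2747 without TR1-2, 135, 998 and 18 without TR2-1, and 135, 1014 and 18 without TR2-2.

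Away from the control, limma called 15.0% of genes between TR1 and wild type (7.60% higher with TR1, 7.38% lower), 5.24% between TR2 and wild type (2.75% higher with TR2, 2.49% lower) and 1.22% between TR1 and TR2 (0.632% higher with TR1, 0.585% lower, with voom weights 152 genes higher and 82 lower in place of 94 and 87). These totals of 2229, 780 and 181 genes were 927, 240 and 107 without wt-1, 859, 252 and 106 without wt-2, and 4754, 2093 and 1577 without TR1-1. The latter pair of totals was 2114 and 1260 without TR1-2, 226 and 30 without TR2-1, and 251 and 29 without TR2-2. Between TR1 and TR2, the hypoxia target DDIT4 was the 1 gene of 27 in its list past the threshold, and it was higher with TR1. Lower with TR1 were IGFBP5, 1 of 9 IGF-axis genes (-0.31, limma adjusted p = 0.0435), and PDZK1, 1 of 20 estrogen-responsive genes (-0.89, limma adjusted p = 0.0242). The IGFBP5 call was lost with no filter, with median centring and with the replicate number as a block. The DDIT4, IGFBP5 and PDZK1 calls were each also lost on leaving out some single libraries. In the calcium and ATF4 lists limma called 0 genes between TR1 and TR2. Against wild type, genes higher and lower with TR1 were 3 and 3 of 9 in the IGF list. The calcium list had 3 and 3 of 16, and the hypoxia list 5 and 3 of 27. The ATF4 list had 9 and 2 of 24, and the estrogen list 5 and 6 of 20. With TR2 these were 2 and 0, 0 and 0, 1 and 1, 5 and 0, and 4 and 4 in that order. After median centring the calcium counts of TR1 against wild type were 1 and 0.

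The proteases that stanniocalcins inhibit were nearly silent. PAPPA had 0 reads in the control, wild-type and TR2 libraries and 1.94 and 0.837 normalized counts with TR1, and PAPPA2 did not exceed 1.93 in any library. Of their substrates, IGFBP4, which binds IGF until PAPP-A cleaves it, fell with TR1 from 10049 ± 196 to 7579 ± 387 (log2 difference -0.41 ± 0.06 SE, adjusted p = 0.0047). Over 13 alternative settings this p lay between 6.88e-05 and 0.0516, the highest being that without EV-1.

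Of 9 IGF-axis genes tested, 2 rose and 2 fell with TR1 against the control (4.91% and 5.69% over all genes). Another 5 were not past the threshold, and the median log2 difference was -0.12, beside 0.02 over all genes. IRS1, the docking protein of the IGF and insulin receptors, stood at 282 and 288 in the control, 344 and 331 with wild type, 575 and 527 with TR1, and 383 and 429 with TR2. Its TR1 libraries lay above all others, and it rose by 0.95 ± 0.10 (adjusted p = 0.000713, between 3.62e-05 and 0.0106 over the alternatives). IGFBP6, which prefers IGF2, rose with TR1 from 169 ± 7.84 to 283 ± 5.95 (0.74 ± 0.11, adjusted p = 0.0035) and kept its call under all 13 alternatives. With TR2 it was at 278 ± 12.5 (0.72, adjusted p = 0.0209), with the p above the threshold without EV-1 (0.171), EV-2 (0.125), wt-1 (0.0679), wt-2 (0.0675), TR2-1 (0.265) or TR2-2 (0.181), and as low as 0.000545 over the alternatives.

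The receptor genes of this axis differed in their calls. INSR, the insulin receptor gene, fell with TR1 from 306 ± 34.8 to 208 ± 5.69 (-0.55, adjusted p = 0.0164, between 0.00546 and 0.125 over the alternatives, the highest without EV-1). IGF1R, the IGF receptor gene, was at 2972 ± 352 in the control and 3007 ± 99.1 with TR1 (0.02, adjusted p = 0.9). With TR2 IGFBP6 was the 1 gene called of 9, and with wild type that gene was IGFBP5, which fell from 16480 ± 541 to 12293 ± 25.6 (-0.42, adjusted p = 0.00985). The IGFBP5 result was above the threshold without EV-1 (0.119), EV-2 (0.0695), wt-1 (0.128) or wt-2 (0.127), and its lowest adjusted p over the alternatives was 6.93e-05. Without EV-1 the TR1 counts of the list were 2 higher and 0 lower.

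Of 16 calcium and phosphate handling genes tested, 0 rose and 3 fell with TR1 against the control (4.91% and 5.69% over all genes). The median log2 difference was -0.16, beside 0.02 over all genes. After median centring 1 was higher and 4 were lower. SLC20A1, a sodium-phosphate cotransporter gene, was at 1019 and 1158 in the control, 922 and 903 with wild type, 759 and 718 with TR1, and 849 and 872 with TR2. The control libraries were the highest and the TR1 libraries the lowest (-0.56 ± 0.08, adjusted p = 0.00437), and the call held under all 13 alternatives. ATP2A2, the calcium pump gene of the endoplasmic reticulum, fell with TR1 from 10874 ± 102 to 8864 ± 514 (-0.30, adjusted p = 0.0161), with the p above the threshold without EV-1 (0.115), EV-2 (0.0926), wt-1 (0.0509) or wt-2 (0.0511), and as low as 0.000301 over the alternatives. VDR, the vitamin D receptor gene, had an adjusted p of 0.0438, which was above the threshold under 8 of 13 alternatives (between 0.000389 and 0.214), namely with no filter and without any single library other than TR1-1.

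STIM1, the calcium sensor whose store-operated entry STC2 is known to restrain, was at 427 ± 29.6 in the control and 355 ± 2.44 with TR1 (-0.26, adjusted p = 0.107). With wild type and with TR2, limma called 0 of the 16 genes, 4 had an unadjusted p under 0.05 in each comparison, and voom weights called 0. The TR1 count was 1 without EV-1, EV-2, wt-1 or wt-2, and 7 lower and 1 higher without TR1-1.

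Of 27 hypoxia targets tested, 3 rose and 2 fell with TR1 against the control (4.91% and 5.69% over all genes). Another 22 were not past the threshold, and the median log2 difference was 0.02, beside 0.02 over all genes. DDIT4, which encodes an inhibitor of the growth kinase mTOR, stood at 717 and 629 in the control, 593 and 687 with wild type, 1880 and 1692 with TR1, and 1143 and 1133 with TR2. It follows the order seen for STC2, with TR1 above TR2 and TR2 above the rest. It rose by 1.41 ± 0.10 with TR1 (adjusted p = 8.14e-05, between 3.43e-07 and 0.0018 over the alternatives). With TR2 it rose by 0.76 (adjusted p = 0.0129), with the p above the threshold without EV-1 (0.0546), EV-2 (0.13), TR2-1 (0.169) or TR2-2 (0.164), and as low as 6.41e-05 over the alternatives.

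VEGFA, the angiogenic growth factor gene, rose with TR1 from 792 ± 33.7 to 1079 ± 11.5 (0.45, adjusted p = 0.00746), with the p above the threshold without EV-1 (0.0705) and with median centring (0.0609), and as low as 0.00085 over the alternatives. LOX, a collagen cross-linking oxidase gene, rose from 10.2 ± 2.32 to 30.2 ± 2.51 (1.496, adjusted p = 0.0368), with the p above the threshold without EV-1 (0.0969), EV-2 (0.175), TR2-1 (0.0722) or TR2-2 (0.0724) and with no filter (0.0858), and as low as 0.0189 over the alternatives. ADM, the adrenomedullin gene, fell from 127 ± 14.6 to 52.7 ± 2.31 with TR1 (-1.25, adjusted p = 0.00841, between 0.000383 and 0.0733 over the alternatives, the highest without EV-2). With wild type ADM was at 44.2 ± 13.4 (-1.54, adjusted p = 0.0114), with the p above the threshold without EV-1 (0.0693), EV-2 (0.11) or wt-1 (0.0839), and as low as 0.0002 over the alternatives. The TR1 counts of the list were 1 higher and 1 lower without EV-1, 2 higher and 0 lower without EV-2, and 6 higher and 8 lower without TR1-1.

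Of 24 ATF4 and unfolded protein response genes tested, 6 rose and 0 fell with TR1 against the control (4.91% and 5.69% over all genes). The median log2 difference was 0.08, beside 0.02 over all genes. Those that rose were ATF4, ASNS, CHAC1, PSAT1, SLC7A11 and CEBPB. CHAC1, a glutathione-degrading enzyme gene, rose from 21.9 ± 3.57 to 52.4 ± 5.45 (1.23 ± 0.24, adjusted p = 0.0149, between 0.00995 and 0.103 over the alternatives, the highest without EV-1). SLC7A11, the cystine transporter gene, was at 28.99 and 35.35 in the control and at 80.5 and 193 in the TR1 libraries, which lay far apart from each other (1.93, adjusted p = 0.0127, or 0.0936 without EV-1 and 0.058 without EV-2, with a lowest of 5.79e-06 over the alternatives). PSAT1 (0.47, adjusted p = 0.0131) and ASNS (0.45, adjusted p = 0.0122), enzymes of serine and asparagine synthesis, were above the threshold without EV-1 (0.11 and 0.101) and with median centring (0.0552 and 0.0667), with a lowest of 0.000491 and 0.00129 over the alternatives.

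The TR1 count of this list moved with single libraries and with the scaling. Without EV-1 it was 0, without EV-2 it was 3 higher, without TR1-1 it was 7 higher and 2 lower, and after median centring it was 2 higher, with a median of -0.011. With TR2, limma called 0 of 24, 8 had an unadjusted p under 0.05 and voom weights called 0, and without TR1-1 or TR1-2 limma called 5 and 6, all higher. With wild type 0 rose and 2 fell, and these encode the chains of an amino acid transporter. SLC7A5 fell from 20962 ± 1304 to 12584 ± 39.6 (-0.73 ± 0.06, adjusted p = 0.00101) under all 13 alternatives, and SLC3A2 from 5978 ± 464 to 3974 ± 105 (-0.59, adjusted p = 0.00506). The SLC3A2 result was above the threshold without EV-2 (0.0523), wt-1 (0.0879) or wt-2 (0.0682), and its lowest adjusted p over the alternatives was 2.93e-05.

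Of 20 estrogen-responsive genes tested, 6 rose and 4 fell with TR1 against the control (4.91% and 5.69% over all genes). The median log2 difference was 0.21, beside 0.02 over all genes. AREG, an EGF-family ligand gene, was at 482 and 517 in the control, 722 and 716 with wild type, 240 and 216 with TR1, and 280 and 277 with TR2. Its order was the reverse of that of STC2, apart from wild type standing above the control. It fell by 1.13 on the log2 scale with TR1 (SE 0.10, adjusted p = 0.000223) under all 13 alternatives. With TR2 it fell by 0.84 (adjusted p = 0.00559), with the p above the threshold without EV-1 (0.0537), EV-2 (0.0798), TR2-1 (0.0831) or TR2-2 (0.111), and as low as 2.63e-05 over the alternatives.

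WISP2, a CCN-family gene, rose with TR1 from 89.7 ± 11.4 to 214 ± 12.2 (1.25 ± 0.16, adjusted p = 0.00161), and CXCL12, a chemokine gene, from 3313 ± 212 to 4709 ± 85.8 (0.51 ± 0.06, adjusted p = 0.00176). Both calls held under all 13 alternatives. NRIP1, a nuclear receptor corepressor gene, had 222 and 556 normalized counts in TR1 libraries that lay far apart (1.51, adjusted p = 0.0344). It was past the threshold under 5 of 13 alternatives (between 2.15e-06 and 0.193), losing it with no filter, with voom weights and without any single EV, wt or TR2 library. PDZK1, a scaffold protein gene, fell from 235 ± 44.4 to 143 ± 6.07 (-0.70, adjusted p = 0.0179, between 0.0022 and 0.122 over the alternatives, the highest without EV-1). ESR1, the estrogen receptor gene itself, was at 3437 and 3272 in the control and 2804 and 2796 with wild type. It was at 4035 and 3871 with TR1, and 3358 and 3872 with TR2. The difference of TR1 from the control was 0.24 ± 0.08 (limma adjusted p = 0.0843). From wild type it was 0.50 with TR1 (limma adjusted p = 0.00319) and 0.36 with TR2 (limma adjusted p = 0.0286).

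The other 10 estrogen-responsive genes tested were not past the threshold with TR1. The counts of the list with TR1 were 2 higher and 2 lower without EV-1, 2 and 3 without EV-2, 9 and 6 without TR1-1 and 9 and 5 without TR1-2. Leaving out a wild-type or a TR2 library gave 4 higher and 3 lower in each case. With TR2, CXCL12 rose (0.59, adjusted p = 0.00462) and AREG fell, with 18 genes not past the threshold. The CXCL12 result with TR2 ranged from 1.9e-05 to 0.0854 over the alternatives, and missed the threshold without EV-1 (0.056), TR2-1 (0.0854) or TR2-2 (0.0648).

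Wild-type GATA3, with which STC2 stood at the control level, had 2 estrogen-responsive genes higher and 2 lower than the control, and voom weights called 2 of these 4. EGR3, an early growth response factor gene, was at 52.0 and 54.8 with wild type and at 2.44 or less in the other 6 libraries (4.05 ± 0.54, adjusted p = 0.00871). It missed the threshold without EV-1 (0.0693), EV-2 (0.0646), wt-1 (0.111) or wt-2 (0.116), with a lowest of 0.000571 over the alternatives. WISP2 fell by 1.10 on the log2 scale with wild type (adjusted p = 0.0114) and missed the threshold without EV-1 (0.116), wt-1 (0.106) or wt-2 (0.109) and with voom weights (0.0507), with a lowest of 0.000655. AREG (0.52, adjusted p = 0.0329, between 0.00133 and 0.289) and KCNK5 (-0.69, adjusted p = 0.0441, between 0.00476 and 0.3) missed it without any single EV, wt or TR2 library, and with no filter (0.0523 and 0.0794) or the replicate number as a block (0.0721 and 0.0863). AREG also missed it with median centring (0.116), and KCNK5 with a pseudocount of 10 (0.0512) and with voom weights (0.0991).

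The small list counts with wild type and with TR2 moved with single libraries. Without TR1-1, the TR2 counts were 3 higher and 1 lower in the IGF list, 1 and 4 in the calcium list, 4 and 3 in the hypoxia list, 5 and 0 in the ATF4 list and 6 and 4 in the estrogen list. Without TR1-2 they were the same apart from 6 higher in the ATF4 list. Without EV-1, TR2-1 or TR2-2 limma called 0 genes of these lists with TR2, and without EV-2 it called 1, an estrogen-responsive gene that was higher. With wild type, leaving out TR1-1 or TR1-2 gave 1 higher and 4 lower in the ATF4 list, 8 and 4 in the estrogen list and 1 and 2 in the hypoxia list. In the calcium list, where limma called 0 genes with wild type, it gave 1 higher and 3 lower without TR1-1 and 1 higher and 4 lower without TR1-2. Leaving out EV-1, wt-1 or wt-2 gave 0 called genes of the IGF and estrogen lists with wild type.

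**Figure D4:**
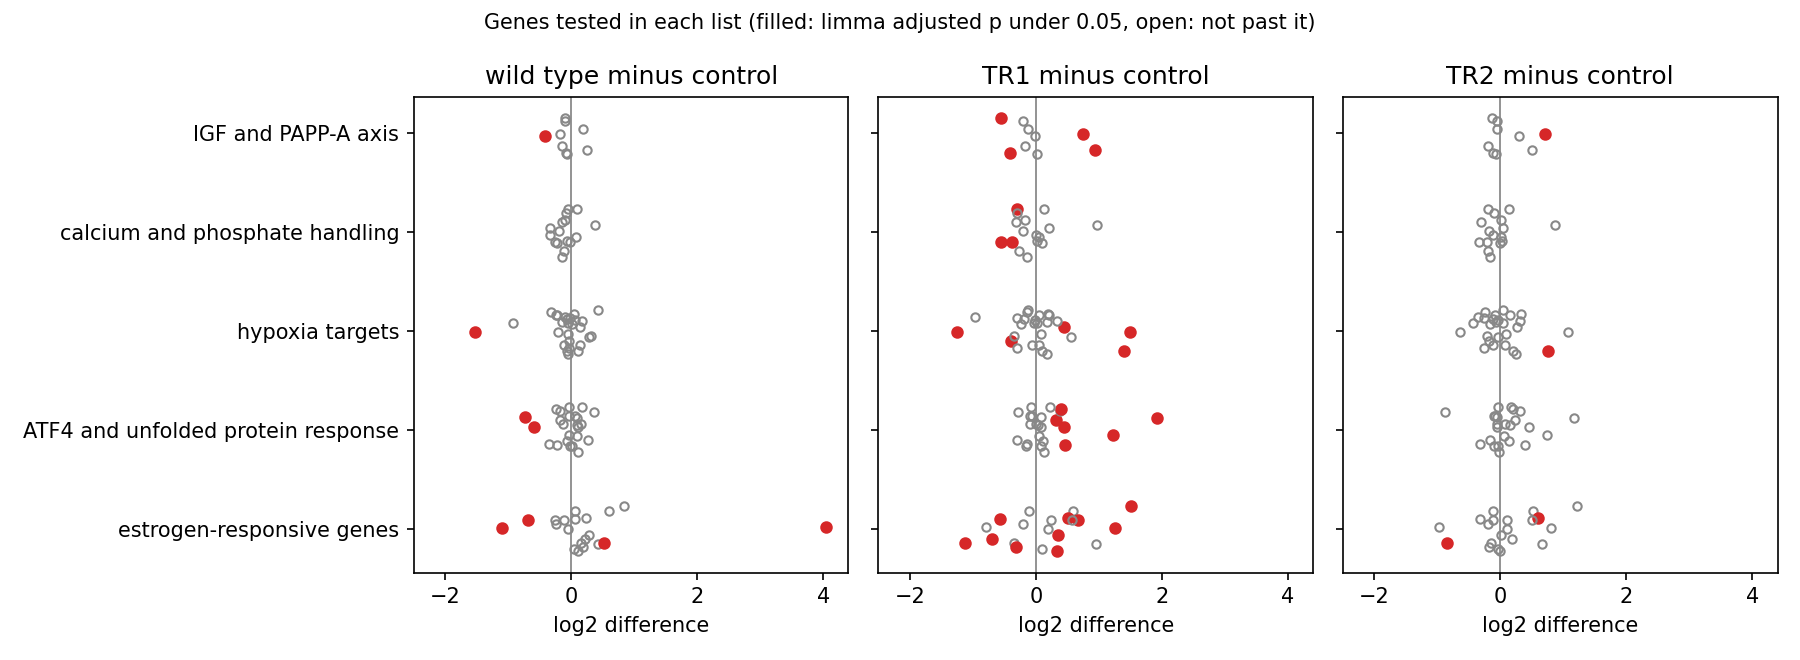
Log2 difference from the control (horizontal axes) of every tested gene of 5 lists (rows) with wild type, TR1 and TR2; each point is a gene, filled where the limma adjusted p is under 0.05, with vertical scatter added for legibility. With TR1 the filled points lie on both sides of 0 in every list except the ATF4 list, where 6 lie to the right, and the calcium list, where 3 lie to the left.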

How the data were processed

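Total RNA of 8 T47D libraries was profiled by RNA-seq with a strand-specific kit, per the labels' protocols. The submitters' processing notes list TopHat, HTSeq and hg38; versions, annotation and strand setting are not given in the sources used here. For 28859 symbols, the table the authors deposited holds log2(normalized count + 1). On the linear scale, 100% of values lay within 0.01 of a whole multiple of 1 step per library, which gave the reads.

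Groups came from the sample titles. For the 6 pairs of groups, limma 3.58.1 (R 4.3.3; lmFit, eBayes with trend) was run on those log2 values in a joint fit of the 8 libraries by group. It had 4 residual and 4.69 prior degrees of freedom. P-values are two-sided and Benjamini-Hochberg adjusted, with a threshold of 0.05. The procedure was checked on simulated counts with the same spread in every group. That check does not cover the wider spread between the TR1 replicates. Fold changes on the log2(value + 1) scale understate changes of low genes, and p-values measure only the spread between these samples.

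The stanniocalcins and the lists were chosen with earlier results of these data known. The text names, per list, up to 4 genes past the threshold with the largest difference from the control, genes with a known role beside stanniocalcins, and the 6 genes of highest r, leaving out clone-like names. Some genes that these rules name are not reported here. List symbols were matched directly or through RefSeq synonyms that are no other gene's symbol; unmatched ones were not analysed here. A promoter sequence was matched for STC2, 1 of the 2 genes. Coordinates are 1-based. The alternatives are a pseudocount of 10, no filter, median centring, the replicate number as a block, voom weights on the recovered reads (chosen after seeing the data) and leaving out each library.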

Additional observations from a re-analysis of the deposited data

How the results depend on the processing

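With a pseudocount of 10 the STC1 log2 difference of TR1 was 2.79 from the control, 2.71 from wild type and 2.62 from TR2; voom weights gave 6.71 and 6.04 for the former pair, and median centring 5.82 from the control. Leaving out single libraries gave STC1 differences from the control of 0.00 to 1.10 (wild type), 5.91 to 5.92 (TR1) and 0.00 to 1.92 (TR2), of 4.81 to 5.91 (TR1) and -0.55 to 1.37 (TR2) from wild type, and of 3.99 to 5.91 between TR1 and TR2. Median centring moved the median of all genes against the control by under 0.1, and gave STC2 differences from the control of 0.46 (TR1), 0.18 (TR2) and -0.060 (wild type). Without single libraries STC2 differed from the control by 0.51 to 0.59 (TR1), 0.24 to 0.27 (TR2) and 0.004 to 0.016 (wild type), from wild type by 0.50 to 0.58 and 0.23 to 0.26, and between TR1 and TR2 by 0.26 to 0.33. Genes called between TR2 and the control (137) were 253 with median centring and 91 with no filter. Without single libraries the calls ranged from 49 to 1758 (wild type and control), 604 to 5170 (TR1 and control), 18 to 2747 (TR2 and control), 859 to 4754 (TR1 and wild type, 2229 in all), 226 to 2114 (TR2 and wild type, 780) and 29 to 1577 (TR1 and TR2, 181). Where a group was left with 1 library it was assumed to vary like the others; the cause of these shifts was not tested. With the replicate number as a block, the calls were 184, 1248, 99, 1780, 612 and 125 in the same order; deviations of same-numbered libraries correlated between -0.404 and 0.37, not above 0.1 in every pair of groups, so the numbers were not taken to pair the libraries. Of 33 calls of named genes against the control, 8 held under all alternatives, and none reversed. A negative binomial test on recovered reads was not run, since the values were deposited as log2. At this depth STC1 levels under 3 reads per library cannot be ordered.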

Other observations

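Protein-coding neighbours of STC1 and STC2 in GENCODE 29 were read beside the pair, and limma values are for TR1 against the control. The mitochondrial iron carrier gene SLC25A37, 266 kb from STC1, was at 653 ± 4.55 normalized counts in the control and 610 ± 54.0 with TR1 (log2 difference -0.10, adjusted p = 0.495).

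Around STC2, the genes BNIP1 and BOD1 lay 150 and 278 kb away. BNIP1 was at 321 ± 1.98 in the control and 263 ± 17.8 with TR1 (-0.29, adjusted p = 0.136), and BOD1, a chromosome segregation gene, at 728 ± 4.26 and 811 ± 40.0 (0.15, adjusted p = 0.213). CREBRF (0.82, adjusted p = 0.225) and CPEB4 (0.53, adjusted p = 0.259) had TR1 libraries far apart, at 34.9 and 67.8 and at 187 and 401 normalized counts.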
